A study of Drosophila melanogaster with 2 samples.

Results

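The genes described here are 8 regulators of mesoderm and heart formation in the fruit fly Drosophila melanogaster: twi, tin, htl, pyr, ths, Doc1, Doc2 and Doc3. They were taken by name, and no measured value entered the rule, though they were chosen with earlier results of these data known. They are 8 of 13945 protein-coding genes on the main chromosome arms. The window of a gene was everything within 10 kb of any of its annotated start sites, together with its whole span. The 8 windows held 93 of the 30000 candidate peaks that the authors listed for the pooled reads. They also held 5 of the 2487 peaks that passed the authors' reproducibility threshold, called thresholded peaks below. These 2487 are the candidates with the highest pooled signal, and some of them have no match in 1 of the replicates. The pooled candidate list is labelled as peaks and background together, and its lowest signal is 28.5. It and the list of each replicate hold 30000 entries. A weak candidate may thus be background, and no match in a replicate means no entry in its list.

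Whole embryos aged 0 to 12 hours, males and females together, carried the basic helix-loop-helix (bHLH) repressor E(spl)m5-HLH with a green fluorescent protein at its C terminus, and its chromatin sites were read by immunoprecipitation and sequencing (ChIP-seq). There is 1 group of 2 biological replicates, numbered 3 and 4, and no group to set it against. A free-text label calls both samples input controls, whereas the assay and antibody labels describe an immunoprecipitation, which is the reading used here. The labels describe a transgenic line with an insertion that targets this gene; its copy number is not stated in them. Signal is the authors' value for each peak from lists made with 1 shared further file, taken to be the control, on a scale that is not given, and read depth is unknown, so each value is described within its own list.

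The mesoderm forms from the ventral cells of the early embryo, where the bHLH activator Twist, the product of twi, switches on the mesodermal genes. The receptor Heartless, encoded by htl, then receives the fibroblast growth factors (FGFs) Pyramus and Thisbe, encoded by pyr and ths, as mesoderm cells spread under the ectoderm. The homeodomain protein Tinman, from tin, and the T-box proteins Dorsocross, from the Doc genes, act together in the specification of heart cells, and the Doc genes are also active in the dorsal ectoderm and amnioserosa. E(spl) bHLH proteins are made in response to Notch, recruit the corepressor Groucho, and take part in the choice of progenitor cells in the ectoderm and in the mesoderm. In whole embryos, binding in mesodermal cells and in other cells cannot be told apart.

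A promoter summit is here a thresholded summit no more than 1 kb from a start site. Of the 8 genes, tin was the 1 gene with such a summit (12.5%), against 11.9% of all protein-coding genes (1653 of 13945, 95% Wilson interval 11.3 to 12.4, covering counting error only). In the wider windows tin and ths had thresholded summits (2 of 8, 25%), against 37.2% of all genes (5192 of 13945). The shares of the 8 genes were thus near or under the background, and twi, htl, pyr, Doc1, Doc2 and Doc3 had candidates only below the threshold. All 8 had some candidate within 1 kb of a start site, against 57.5% of all genes (8021 of 13945).

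**Figure D1:**
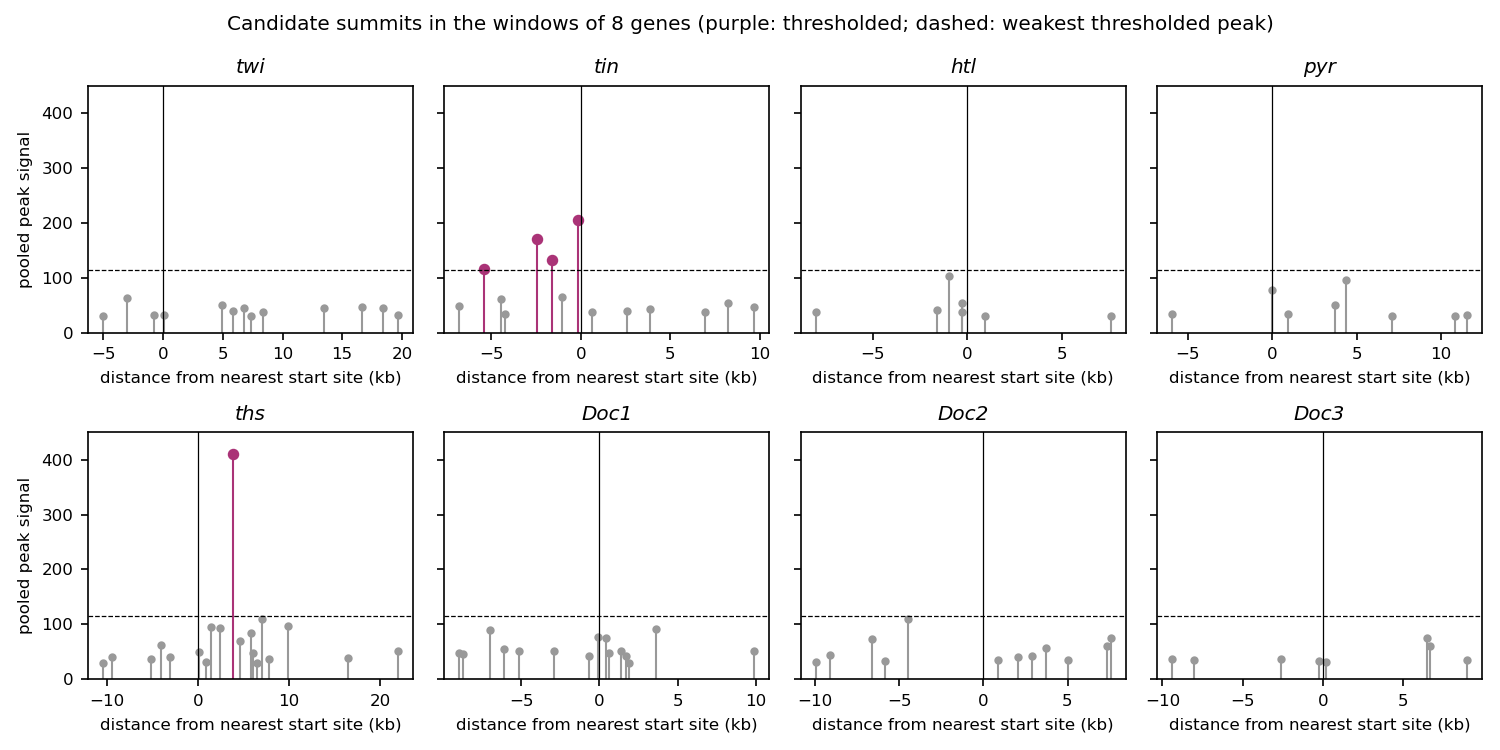
Pooled peak signal of every candidate summit in the window of each gene against its distance in kb from the nearest start site of that gene, negative upstream. Purple points are thresholded peaks and the dashed line is the weakest thresholded peak of the genome, at 114; 4 summits at tin and 1 at ths stand above it, and those of the other 6 genes lie under it.

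Among the ligands and their receptor, ths carried the strongest peak of all 8 windows. The gene lies at 2R 11756817 to 11814424 (dm6, plus strand) and has 2 start sites 33549 bp apart. The peak had its summit at 2R 11794230, in an intron of ths and 3864 bp downstream of the internal start site. Its pooled signal was 411, rank 167 of the thresholded list. In replicate 3 the signal was 184 (rank 262), and in replicate 4 it was 226 (rank 131). The site was thus high in both replicates, and their summits lay 26 bp and 5 bp from the pooled one.

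Other candidates lay along the same stretch of the gene. From 1431 to 9914 bp downstream of the internal start there were 8 candidate summits over 8483 bp, with pooled signals from 48.4 to 411 and a median of 94.2, and 6 of the 8 had a summit within 100 bp in both replicates. The other 11 candidates of the ths window had a median of 38.3 and a highest signal of 63.1, and 1 of them was matched in both replicates. Over all candidates of the genome, 31.2% were so matched (9366 of 30000). The stretch was not set in advance and takes in the strongest candidates of the window. The contrast thus describes where they lie and is no test. Next to the thresholded peak, the strongest was 7058 bp from the internal start, with a signal of 110 (rank 2676), which ranked 5419 in replicate 3 and 1780 in replicate 4. It fell short of the threshold, as did the candidate 9914 bp away, with a signal of 96.7 (rank 3393). Close to the internal start itself the signal was 48.9, so the strongest peaks at ths were listed inside the gene and not at its start sites.

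The other ligand gene, pyr, which lies 30472 bp from ths on the same strand, had no thresholded summit among its 8 candidates. The strongest, in its intron 4357 bp downstream of the start site, had a pooled signal of 96.4 (rank 3409). It ranked 13419 in replicate 3, with a signal of 27.2, and 2192 in replicate 4, with a signal of 63.4, so it stood far higher in the list of replicate 4. The summit 16 bp upstream of the pyr start site had a signal of 78.2 (rank 4914), and there the replicates were closer, at ranks 6624 and 7500 in replicates 3 and 4. A weaker candidate, 3692 bp inside the gene, had a signal of 49.5.

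The receptor gene htl lies at 3R 18045216 to 18052984 (minus strand) with 2 start sites 3618 bp apart. Its strongest candidate had its summit at 3R 18050358, 992 bp upstream of the internal start site and 2626 bp inside the longer transcript, in an intron. The pooled signal was 104 (rank 2993), with 38.5 in replicate 3 (rank 6738) and 54.8 in replicate 4 (rank 2858). The weakest thresholded peak of the genome had a signal of 114.38 (rank 2487) and the next peak below it 114.33, so this site lay a little under the threshold. The other 2 of the 3 strongest htl candidates, 307 and 1612 bp upstream of the internal start, had signals of 53.7 and 40.5. The 201 bp around the strongest htl summit are shown because they hold Twist-type E boxes in 2 places. They lie at chr3R:18050258-18050458 (dm6, plus strand, opposite to the gene). Capitals here and below mark matches to any of the 14 classes of motif searched.

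htl intron: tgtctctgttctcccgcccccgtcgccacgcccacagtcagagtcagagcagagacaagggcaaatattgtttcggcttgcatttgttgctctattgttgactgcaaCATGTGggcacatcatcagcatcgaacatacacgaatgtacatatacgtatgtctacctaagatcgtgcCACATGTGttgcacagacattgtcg

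These capitals are a CATGTG, which is CACATG on the other strand, 7 bp after the summit, and CACATGTG, which reads CACATG on both strands, from 76 bp after it. CACATG was found at least once in 11.7% of all thresholded windows of this length (291 of 2487) and in 10.7% of the other candidates (2940 of 27513).

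At the top of the mesodermal hierarchy, twi had 13 candidates and none past the threshold. Its annotation includes 1 transcript that starts 60734 bp upstream of the promoters next to the coding region, so its window covers 62952 bp of gene span. The strongest candidate, at 2R 23043099, had a pooled signal of 63.9 (rank 6995), with 30.1 in replicate 3 (rank 10985) and 35.8 in replicate 4 (rank 6385). It lay 3009 bp upstream of the proximal start sites, but only 156 bp upstream of CG42741, the nearest gene. The window also held the candidate 4909 bp downstream of a twi start, whose nearest gene was Fatp2, with a signal of 49.6 and no match in replicate 4. A further candidate, 3153 bp upstream of CG9896, had a signal of 46.2 and no match in replicate 3. At the twi promoters themselves the strongest candidate, 787 bp upstream of a start site, had a pooled signal of 32.7. In replicate 3 it had 36.5 (rank 7481, the best of the twi window there), and in replicate 4 it had no match. Of all protein-coding genes, 52.2% had a pooled signal as high or higher within 1 kb of a start site. No strong binding was listed at twi in either replicate, where its window reached ranks of 7481 (replicate 3) and 6385 (replicate 4) at best.

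The heart gene tin had the most thresholded summits of the 8, with 4 in its window. It lies at 3R 21378977 to 21381970 (plus strand), and its start site is 1576 bp from that of mod(mdg4), which runs the other way and encodes chromatin proteins made in many spliced forms. The summit nearest to tin was at 3R 21378822, between the genes, 155 bp upstream of tin and 1421 bp from the start of mod(mdg4). Its pooled signal was 206 (rank 772). The replicates differed at this site, with a signal of 162 and rank 340 in replicate 3, against 47.2 and rank 3781 in replicate 4. In replicate 3 the summit lay 62 bp away from the pooled one, and in replicate 4 it lay 1 bp away. By the strongest peaks of replicate 4 alone, as many as the thresholded list holds, no gene of the 8 had a promoter summit.

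The sequence around the tin summit is given because it is the 1 thresholded promoter site among the 8 genes, at chr3R:21378722-21378922 (dm6, plus strand, the strand of the gene).

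tin promoter: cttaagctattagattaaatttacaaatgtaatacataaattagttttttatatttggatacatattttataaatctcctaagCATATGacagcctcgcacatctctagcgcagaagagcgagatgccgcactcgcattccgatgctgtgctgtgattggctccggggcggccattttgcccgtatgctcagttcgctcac

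The capitals are CATATG, an E box bound by Twist, which begins 17 bp before the summit and was found in 8.85% of all thresholded windows (220 of 2487). No other searched motif was found in this window, which says only that those letters are not in these 201 bp.

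The other 3 thresholded summits of the tin window lay nearer to start sites of the mod(mdg4) locus. The summit 2463 bp upstream of tin was 887 bp inside mod(mdg4), in an intron, with a pooled signal of 171 (rank 1116). It had a signal of 64.4 in replicate 3 (rank 2468) and 112 in replicate 4 (rank 661). The summit 1624 bp upstream of tin fell in the 5' UTR of mod(mdg4), 48 bp from its start, with a pooled signal of 132 (rank 1871), 52.5 in replicate 3 (rank 3653) and 66.3 in replicate 4 (rank 2004). The farthest, 5393 bp upstream of tin, was 9 bp from a start shared by 3 short transcription units of the locus, pre-mod(mdg4)-AA among them. Its signal of 116 (rank 2442) was just past the threshold, with 62.3 in replicate 3 (rank 2637) and 63.2 in replicate 4 (rank 2203). These 4 summits spanned 5238 bp. Over all protein-coding genes, 1.96% had 4 or more thresholded summits in such a window (274 of 13945), and at tin 3 of the 4 had another gene as the nearest.

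The site 887 bp inside mod(mdg4) is shown because it was the 1 thresholded summit of the 8 windows with CACGTG or CACGCG, the sites described for E(spl) bHLH proteins, within 100 bp. It lies at chr3R:21376414-21376614 (dm6, plus strand, the strand of tin).

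mod(mdg4) intron: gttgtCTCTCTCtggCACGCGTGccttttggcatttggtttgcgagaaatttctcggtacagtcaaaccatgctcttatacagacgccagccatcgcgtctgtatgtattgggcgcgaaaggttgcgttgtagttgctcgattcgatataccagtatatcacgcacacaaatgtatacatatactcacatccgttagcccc

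The first capitals are a GAGAGAG on the opposite strand and the next are CACGCGTG, which holds CACGCG on both strands and begins 85 bp before the summit, near the edge of the window. CACGTG or CACGCG stood within 100 bp of 1 of the 5 thresholded summits, against 15% of all thresholded summits (374 of 2487). Within 50 bp, none of the 5 held either.

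Downstream of tin the listed signals were low. The candidates beyond its start had pooled signals of at most 54.6, and the strongest of them lay 1696 bp upstream of bap, a homeodomain gene of the visceral mesoderm whose start is 9903 bp from that of tin. The summit 189 bp upstream of bap had a signal of 45.8 (rank 12859), and ranked 27422 in replicate 3 and 18781 in replicate 4.

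**Figure D2:**
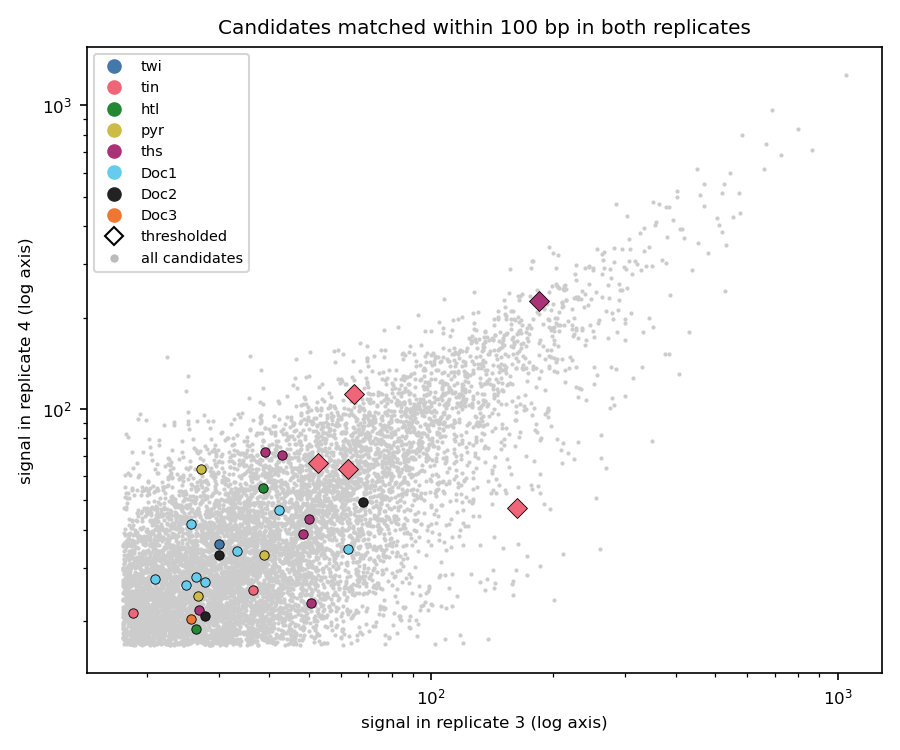
Signal of each candidate in replicate 4 against replicate 3, both on log axes, for the pooled candidates with a summit within 100 bp in both replicates; coloured points are the 31 candidates of the 8 windows (a summit shared by Doc2 and Doc3 has the Doc2 colour), diamonds are thresholded peaks and grey points all 9366 such candidates. The ths diamond is high on both axes, at 184 and 226, and the tin promoter diamond stands apart to the right, at 162 in replicate 3 and 47.2 in replicate 4.

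The 3 Doc genes lie within 39846 bp on 3L, with Doc3 and Doc1 on the plus strand and Doc2 between them on the minus strand. None had a thresholded summit within 10 kb; within 20 kb, Doc3 had one, with a signal of 123. The strongest candidate of the cluster was in the intergenic DNA between Doc2 and Doc1, at 3L 9023739 and 4493 bp upstream of Doc2. Its pooled signal was 110 (rank 2685), with 67.8 in replicate 3 (rank 2226) and 49.3 in replicate 4 (rank 3475). It lay under the threshold in the pooled list, and among the 2487 strongest peaks of replicate 3 but not of replicate 4. The window, at chr3L:9023639-9023839 (dm6, plus strand, opposite to Doc2), is shown because it carried more matches to T-box and GATA sites than any other named summit.

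Doc2 upstream: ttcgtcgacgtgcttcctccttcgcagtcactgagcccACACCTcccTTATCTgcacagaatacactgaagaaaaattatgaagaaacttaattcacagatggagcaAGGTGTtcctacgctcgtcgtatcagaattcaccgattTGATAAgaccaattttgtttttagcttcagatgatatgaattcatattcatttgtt

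The capitals are 2 matches to AGGTGT, the core bound by T-box proteins, of which the first is on the opposite strand, and 2 to GATA sites, first AGATAA on the opposite strand and then TGATAA after the summit. The T-box core was found in 7.16% of all thresholded windows and in 6.61% of the other candidates, to which this site belongs. The GATA sites were found in 24.1% of all thresholded windows and in 22.3% of the other candidates. These shares count windows with at least 1 match, not with 2. Of the 88 weaker candidates of the 8 genes, 9 (10.2%) held a T-box core and 13 (14.8%) a GATA site. None of the 5 thresholded summits held either. A second site upstream of Doc2, 6623 bp from its start, had a signal of 72.8 (rank 5584) with no match in replicate 4, and held 1 Tinman site, TTAAGTG, on the opposite strand. Tinman sites, TCAAGTG or TTAAGTG, were found in 6.39% of all thresholded windows and in 7.79% of the other candidates.

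Doc1 had the most candidates of the 3, with 15 in its window and 8 of them matched in both replicates. At Doc2 3 of 12 were so matched and at Doc3 2 of 8, against 31.2% of all candidates (9366 of 30000). The strongest Doc1 candidate lay 3615 bp downstream of its nearer start and 1995 bp upstream of Argk2, an arginine kinase gene. It had a signal of 91.9 (rank 3710), at ranks 5565 in replicate 3 and 3900 in replicate 4. That 6956 bp upstream of Doc1 had a signal of 89.7 (rank 3884) and ranked 2634 in replicate 3 and 6879 in replicate 4. The summit 81 bp upstream of the Doc1 start site had a signal of 76.4 (rank 5106), with 25.7 in replicate 3 (rank 14954) and 41.8 in replicate 4 (rank 4720). Doc1 was thus the Doc gene with the highest signal at its promoter. The promoter window, at chr3L:9041194-9041394 (dm6, plus strand, the strand of the gene), is given for comparison with that of tin.

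Doc1 promoter: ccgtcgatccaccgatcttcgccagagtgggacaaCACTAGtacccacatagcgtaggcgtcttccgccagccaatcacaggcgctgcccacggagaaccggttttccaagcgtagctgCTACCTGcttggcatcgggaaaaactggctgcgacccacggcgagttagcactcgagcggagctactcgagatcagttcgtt

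The capitals are the N box CACTAG, a match to CACNAG described for E(spl) proteins, and the Zelda site CAGGTAG on the opposite strand, bound by the early activator Zelda. CACNAG was found in 26.3% of all thresholded windows and in 22.6% of the other candidates, and CAGGTAG in 2.57% and 1.55% of them.

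Close to Doc2 and Doc3 the signals were lower. Within 1 kb of the Doc2 start the strongest candidate had a signal of 35.0 (rank 20978), and at Doc3 it was 33.9 (rank 22271). The strongest candidate of the Doc3 window, 6472 bp downstream of its start, had a signal of 74.3 (rank 5376) and no match in replicate 3. It also lay in the Doc2 window, and its nearest start was that of CG5194. A neighbour 6673 bp downstream of Doc3 had a signal of 60.1, and the next, 9409 bp upstream in the 5' UTR of smg, a translational repressor gene, had 37.2. The last of these held the 1 CACGTG among the candidates of the 8 windows.

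**Figure D3:**
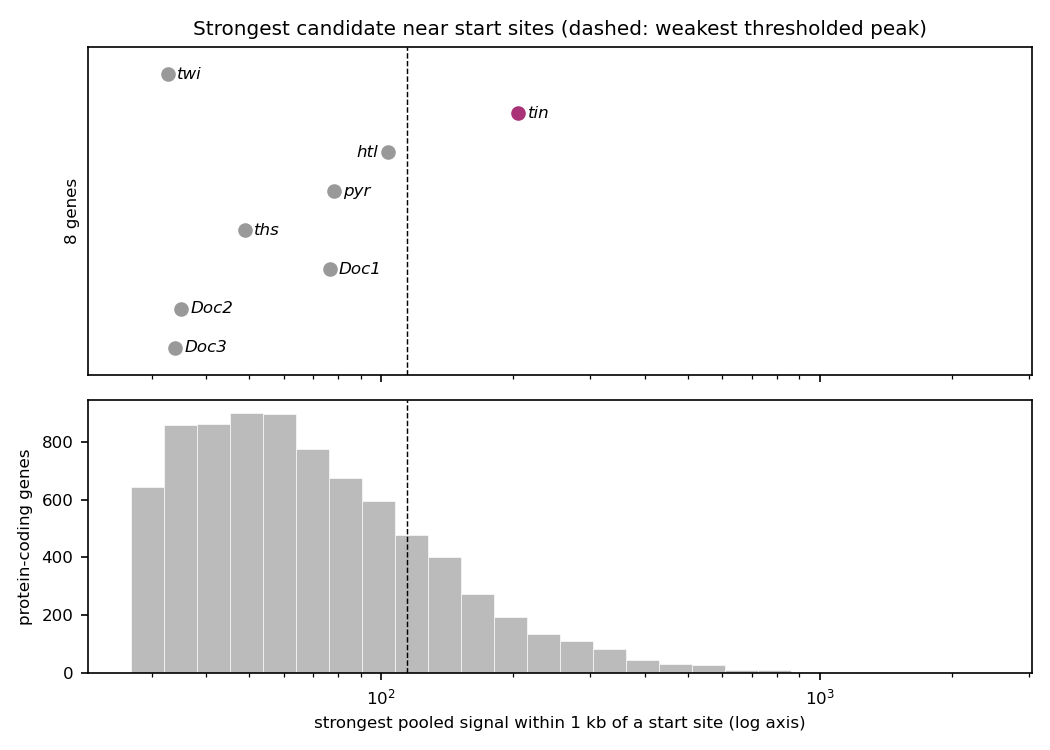
Strongest pooled signal within 1 kb of a start site, on a log axis: above, 1 point for each of the 8 genes; below, the number of protein-coding genes in each bin of signal, for the 8021 with a candidate. The dashed line is the weakest thresholded peak at 114. The 1 gene of the 8 to its right is tin, at 206. The closest to its left is htl, at 104, from a summit 992 bp from its internal start.

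Ordered by the strongest signal within 1 kb of a start site, the 8 genes ran from tin (206) through htl (104), pyr (78.2), Doc1 (76.4), ths (48.9), Doc2 (35.0) and Doc3 (33.9) to twi (32.7). The neighbours pyr and Doc1 differed little, as did Doc2, Doc3 and twi, and with 1 pooled value per gene no error can be set on this order. Of all protein-coding genes, 3.81% had a signal as high as tin, 14.0% as high as htl and 21.3% as high as pyr. The htl value comes from the intronic summit 992 bp from its internal start, close to the 1 kb limit. The candidates 307 bp upstream of that start and 272 bp upstream of the outer one had 53.7 and 38.1. Both are below the values of pyr and Doc1. The median over the 8 genes was 62.6, against 34.6 for all protein-coding genes, where genes with no candidate count as 0. In the wider windows, ths came first at 411, a level that 3.99% of all genes reached, and twi last at 63.9, which 63.8% reached. Median window values were 100 for the 8 genes and 86.6 for all genes.

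The windows of the 8 genes held a median of 12.5 candidates, against 5 for all protein-coding genes. There were 19 at ths and 13 at twi, whose spans are 57608 and 62952 bp. Doc1 had 15 and tin 14, with spans of 3668 and 2994 bp. Only 50 of the 93 candidates had a member as the nearest gene, and of the 5 thresholded summits 2 did, those at tin and ths. By annotation, 46 candidates fell in introns, 34 in intergenic DNA, 7 in 5' UTRs, 3 in coding exons, 2 in exons of non-coding transcripts and 1 in a 3' UTR. The 88 candidates below the threshold had a median signal of 44.0, against 40.3 over all such candidates of the genome, and the 5 thresholded summits had a median of 171, against 162 for all 2487.

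The share of candidates found in both replicates was close to that of the whole list. Of the 88 candidates below the threshold, 26 (29.5%) had a summit within 100 bp in both replicates, against 25.7% of all candidates below it (7064 of 27513). Among the 5 thresholded summits, those in the ths intron and 887 bp inside mod(mdg4) were among the 2487 strongest of both replicates, which is 2 of 5 (40%), against 58% of all thresholded peaks (1443 of 2487). Across the 31 matched candidates of the 8 windows the signals of the replicates had a Spearman rho of 0.67, and across all 9366 it was 0.63. These are descriptions across sites within 1 pair of libraries that share a control. Each replicate also placed other sites among its 2487 strongest: replicate 3 the Doc2 site 4493 bp upstream, and replicate 4 the pyr intron and 2 more sites inside ths.

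Motif matches near the summits varied and were few. In the ths intron, the strongest summit held an N box, CACNAG, starting 1 bp before it, and CAGCTG, the E box bound by proneural proteins, starting 44 bp before it. CAGCTG was found in 16.2% of all thresholded windows, and in 1 of the 5 here. Su(H) sites (CGTGAGAA, CGTGGGAA, TGTGAGAA or TGTGGGAA), which mark direct Notch response elements, were in none of the 5, against 2.49% of all thresholded windows, and CAGGTG, the Snail site, was in none, against 9.65%. Among the 88 weaker candidates, CACGCG was found in 9.09% (8), against 5.80% of all weaker candidates, CACGTG in 1.14% (1), against 3.27%, and CAGCTG in 6.82% (6), against 11.0%. Counts of this size cannot set the 8 genes apart from the rest of the genome. The strongest twi candidate held CACGCG and an N box, 57 and 49 bp before its summit. All motifs were searched on both strands; AGGTGT overlaps CAGGTG in CAGGTGT, and CACGTG can overlap a Su(H) site.

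**Figure D4:**
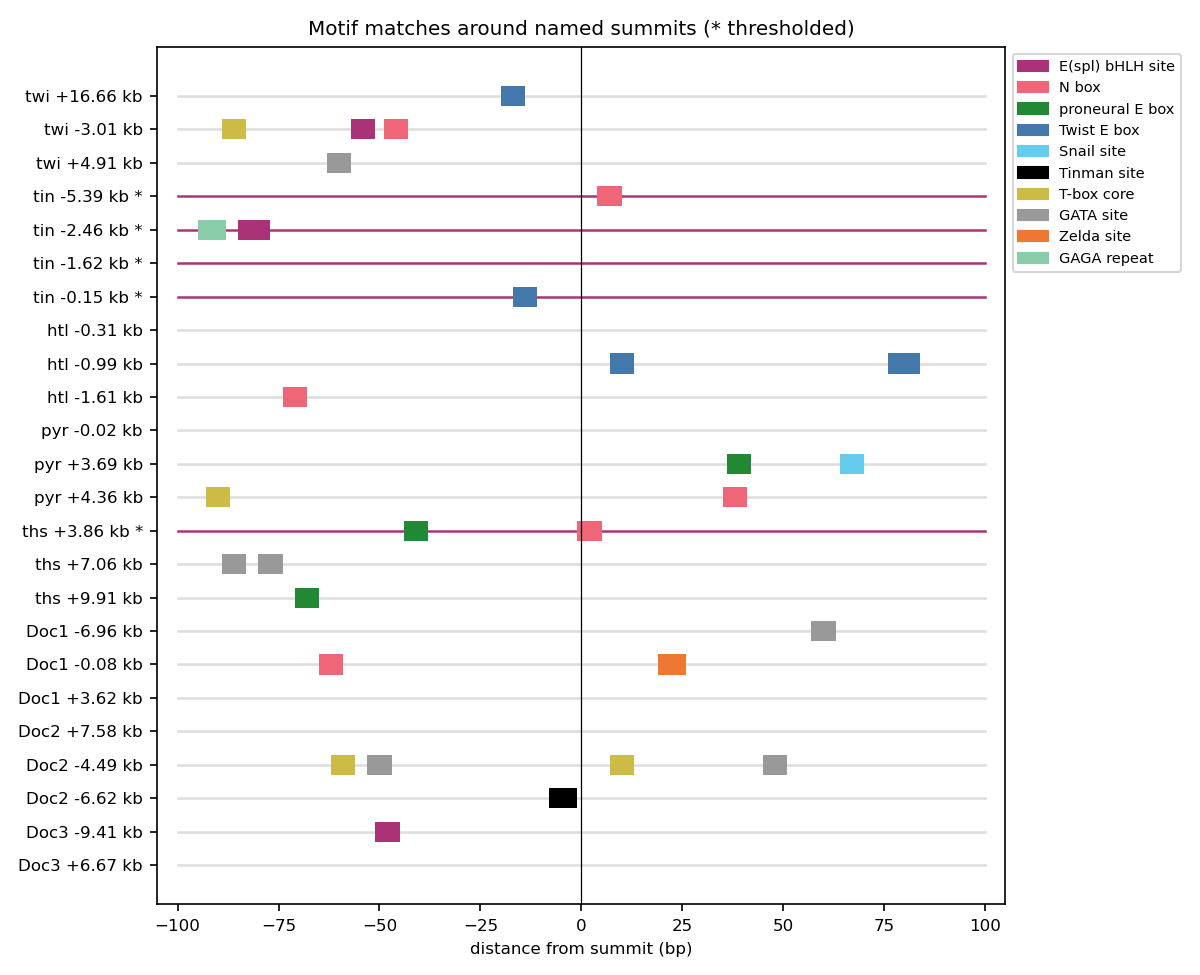
Matches to named classes of motif, as coloured boxes, within 100 bp of each thresholded summit (purple lines, marked with a star) and of the 3 strongest candidates of each gene (grey lines), labelled by gene and by distance from its nearest start site. Of the thresholded sites, that 1624 bp upstream of tin has no match, and the ths site has an N box at its summit.

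In 5 lists of other genes, a promoter summit was listed for 6 of 14 in FGF signalling, 4 of 17 mesoderm and muscle regulators, 3 of 8 heart regulators, 1 of 5 T-box genes and 3 of 11 genes of dorsoventral and Dpp input, against 11.9% of all genes. H15 and mid were counted in both the heart and the T-box lists, and neither had one. These lists were drawn up with earlier results of these data known, so their counts are given without a test. Of 14 other genes of FGF signalling, 6 had a promoter summit, led by pnt, the ETS activator at the end of the pathway (rank 563), sgl, which makes precursors of heparan sulfate chains (864), and sty, an inhibitor of the pathway (999). All 3 were within the 2487 strongest of both replicates. The FGF gene bnl (rank 1248) and stumps, the adaptor of both FGF receptors (1587), also had one, as did aop, the ETS repressor that opposes pnt (1333), with bnl at rank 3516 in replicate 3, aop at rank 2991 in replicate 4 and the stumps summit without a match in replicate 4. The tracheal receptor gene btl had no candidate within 1 kb. Of 17 other mesoderm and muscle regulators, 4 had such a summit: Him, an inhibitor of the muscle factor Mef2 (733), sna, the repressor that acts with Twist (988), Six4 (1310) and eya (1511). The sna summit ranked 2570 in replicate 4.

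Of 8 other heart regulators, 3 had a promoter summit, at ush (rank 1083), pnr (1821) and tup (2413), which encode a cofactor of GATA proteins, a GATA factor and a LIM-homeodomain protein. The pnr summit ranked 4528 in replicate 3 and the tup summit 9728 in replicate 4. Of 5 other T-box genes, org-1 alone had one, with a signal of 343 (rank 255) and ranks of 174 in replicate 3 and 456 in replicate 4. That is above any promoter signal of the 3 Doc genes. Of 11 genes of dorsoventral and Dpp input, 3 had one, vnd (1832), Tl (1912) and brk (1984), the last with no match in replicate 3.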

How the data were processed

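Peak lists of 2 ChIP-seq samples in 1 group were used. The authors deposited candidate peaks for replicates 3 and 4 and for the pooled reads, each made on dm6 with 1 shared further file, taken to be the control, and a list thresholded by an irreproducible discovery rate procedure, per the deposited text files; no source used here gives the peak caller, the threshold or the depth. The signal of each peak is the authors' deposited value. Chromatin was sheared by sonication, per the labels.

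Summits (peak start plus offset) are given 1-based. Genes came from Ensembl release 115 on the same assembly and sequences from RefSeq's copy of it, whose chromosome lengths held every peak. Summits within 100 bp were matched between lists, taking the strongest. Motifs were searched on both strands in the 201 bp centred on a summit. Named sites are all thresholded summits and the 3 strongest candidates of each window; from each of 5 gene lists, up to 3 genes with the strongest thresholded summits within 1 kb are named, and others were chosen after their values were seen. The 8 genes, the lists and the motifs were chosen with earlier results of these data known. With 1 group of 2 replicates, no test was made. Distances, matching rules, each replicate alone, a stricter list and motif windows were varied. Distance and motif searches were checked on simulated data. Python 3.11.15, numpy 2.4.6, pandas 2.3.3, scipy 1.17.1 and matplotlib 3.10.9 were used.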

Additional observations from a re-analysis of the deposited data

How the results depend on the processing

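The number of genes with a thresholded summit within 1 kb stayed at 1 with distances of 500 bp or 2 kb, with the 5' end of each gene as its only start site and in the stronger part of the list (1243 peaks). By the strongest peaks of 1 replicate alone it ranged from 0 (without replicate 3) to 1 (without replicate 4). The number of genes with one in the wider window was 2 or 3 under every alternative run: pyr joined with replicate 4 alone, Doc2 with replicate 3 alone, and Doc3 within 20 kb, where its strongest candidate was 123, against 74.3 within 10 kb and 36.5 within 5 kb. The stronger part of the list left 3 of the 5 summits. Matching within 50 bp left 1 summit strong in both replicates, and counting 4974 peaks of each as strongest made it 5. CACGTG or CACGCG was near 0 of the summits within 50 bp and 3 within 200 bp. The median signal of the thresholded summits was 188 within 5 kb and 308 when only summits nearest to a member were kept. Within 20 kb there were 7 thresholded summits. Leaving out the distal twi transcript, an alternative added after the data had been seen, lowered the candidates to 88. No paired analysis was possible because there is 1 group. Depth is unknown, and the candidate list includes background. A candidate below the threshold, as at htl, Doc2 or pyr, is thus shown to be neither bound nor unbound.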

Other observations

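In the wider window, a thresholded summit was listed for 9 of 14 other FGF signalling genes and 9 of 17 mesoderm and muscle regulators. It was listed for 6 of 8 heart regulators, 3 of 5 T-box genes and 7 of 11 genes of dorsoventral and Dpp input. The share over all protein-coding genes was 37.2%, mid was counted in both the heart and the T-box lists, and no test was made. The 4 genes that follow were picked from these lists after their values had been seen, for strong summits away from their start sites. Of the same mesoderm and muscle list, bap, Poxm, how, lmd, ap, kn, lbe and lbl had no thresholded summit in their windows. The window of Mef2, which encodes the main activator of muscle genes, held 4 thresholded summits, the strongest with a pooled signal of 675, while its strongest candidate within 1 kb of a start site had 80.6. The window of ush held 8, the strongest with a signal of 637, against 174 within 1 kb. The window of nau, the fly homologue of the vertebrate muscle factor MyoD, held 2, the strongest with 305, and had no candidate within 1 kb. The window of dpp, the ligand that maintains tin in the dorsal mesoderm, held 2, the strongest with 297, against 89.8 within 1 kb. Whether those summits belong to these genes or to their neighbours was not tested.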
